A study of Homo sapiens with 6 samples.

Results

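Thymidylate synthesis and deoxynucleoside salvage were followed through 9 enzyme genes, TK1, TYMS, DUT, DTYMK, DCK, DCTD, DGUOK, CMPK1 and SAMHD1. Their RNA was read after the RNA of either subunit of ribonucleotide reductase had been depleted. The genes were chosen by name, and every probe set that the platform annotation assigns to them was taken. These are 9 of 11963 genes with a probe set of their own, read by 15 of the 22277 probe sets on the array. NCI-H929 is an established human multiple myeloma cell line, grown here in RPMI-1640 medium with serum and given small interfering RNA (siRNA) by electroporation, with RNA taken after 24 h. The 6 arrays fall into 3 groups of 2: siRNA directed at RRM1 (siRRM1), siRNA directed at RRM2 (siRRM2) and a non-targeting siRNA (scramble). All 3 groups were therefore electroporated, and all come from the same line. Nothing in the labels states that both arrays of a group stand for separate cultures. The p-values therefore measure only the spread between these samples, which may be technical.

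Cells make deoxyribonucleotides by 2 routes. In the first, ribonucleotide reductase, built from the RRM1 and RRM2 subunits, reduces ribonucleoside diphosphates. In the other, salvage kinases phosphorylate deoxynucleosides taken up or released inside the cell: TK1 acts on thymidine, DCK on deoxycytidine and several purine deoxynucleosides, and DGUOK on purine deoxynucleosides in mitochondria. Thymidylate is also made from deoxyuridylate by TYMS. DCTD supplies that deoxyuridylate by deaminating deoxycytidylate, DUT supplies it by cleaving dUTP, and DTYMK carries thymidylate on to the diphosphate. CMPK1 phosphorylates UMP, CMP and dCMP, and SAMHD1 removes deoxynucleotides by cleaving their triphosphates. TK1, TYMS and DUT are textbook genes of the G1/S transition that E2F factors drive.

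TK1, TYMS and DUT were the members that rose after depletion of RRM1 RNA. The 250 bases before a start site of each are therefore shown, with DCK, which did not pass the test, beside them. The sequences are RefSeq's, build GRCh38.p14, written 5′ to 3′ on the strand of the gene. All 9 genes had a window in that table, 14 windows in all, each running from 250 bases before to 50 bases after a start. Where a gene had several windows, the one with the most matches is printed. Capitals mark matches on either strand to 4 forms of the E2F site, with the share of all 35116 windows that hold each: TTGGCGC (3.04%), TTCCCGC (6.55%), TTCGCGC (2.24%) and TTGCCGC (2.39%).
TK1, minus strand, chr17:78187053-78187302: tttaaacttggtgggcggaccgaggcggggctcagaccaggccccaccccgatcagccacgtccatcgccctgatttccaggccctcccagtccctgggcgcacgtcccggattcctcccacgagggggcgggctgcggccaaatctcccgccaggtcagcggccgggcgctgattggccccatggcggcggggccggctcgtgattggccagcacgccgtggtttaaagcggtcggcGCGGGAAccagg
TYMS, plus strand, chr18:657403-657652: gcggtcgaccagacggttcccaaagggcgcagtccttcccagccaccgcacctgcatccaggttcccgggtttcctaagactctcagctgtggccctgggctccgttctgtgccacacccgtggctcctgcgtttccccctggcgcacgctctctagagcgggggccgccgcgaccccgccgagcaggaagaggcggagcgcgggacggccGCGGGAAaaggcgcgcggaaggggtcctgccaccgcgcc
DUT, plus strand, chr15:48331947-48332196: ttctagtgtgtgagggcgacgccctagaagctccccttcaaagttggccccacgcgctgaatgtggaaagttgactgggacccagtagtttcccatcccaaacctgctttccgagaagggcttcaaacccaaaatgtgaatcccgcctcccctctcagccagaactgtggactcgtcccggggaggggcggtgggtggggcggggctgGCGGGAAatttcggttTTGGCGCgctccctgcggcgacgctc
DCK, plus strand, chr4:70993399-70993648: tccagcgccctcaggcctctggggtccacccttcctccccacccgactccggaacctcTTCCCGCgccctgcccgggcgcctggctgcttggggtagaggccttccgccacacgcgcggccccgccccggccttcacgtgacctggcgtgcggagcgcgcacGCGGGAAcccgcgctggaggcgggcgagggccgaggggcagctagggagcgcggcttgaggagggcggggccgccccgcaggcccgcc

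The TK1 window held 1 match, starting at position -12 from the start site, and the TYMS window held 1, at -39. The DUT window held 2, at -42 and -26. The DCK window held 3, at -192, at -88 and, beyond the printed stretch, at 22. No match was found in the windows of DTYMK, DCTD, DGUOK, CMPK1 or SAMHD1, and none in the other windows of TK1 and DUT. Of all windows in the table, 13% held at least 1 of the 4 forms. All such shares count single windows, whereas TK1, DUT and DCTD each had several, so gene and window shares are not alike. The NF-Y box CCAAT, present in 34.6% of all windows, lay in the windows of TK1 (2 matches), DTYMK (2), SAMHD1 (2) and DGUOK (1). The Sp1 box GGGCGG, present in 45% of all windows, lay in at least 1 window of every member gene except TYMS, CMPK1 and SAMHD1. Of the cell cycle homology forms, TTTGAA (15.2% of all windows) occurred 2 times in the DUT window and TTCGAA (1.45%) 1 time in that of DTYMK. Overlaps between different matches in the member windows numbered 0. These matches describe the letters only.

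The deposited values are log2 signals, and the array medians lay between 6.11 and 6.16, so no further scaling was applied. Of the 15 member probe sets, 14 reached the filter, a mean log2 signal of 5.44 over the 6 arrays (the 40th percentile of all probe sets). The second TYMS probe set did not. In all, 13308 probe sets were tested with limma. The threshold for a call was a Benjamini-Hochberg adjusted p under 0.05. Both siRNA targets fell in their own groups. In siRRM1, RRM1 (201477_s_at) fell by 2.63 log2 units (SE 0.27, limma adjusted p = 0.00289). In siRRM2, RRM2 fell by 1.79 log2 units at 201890_at (SE 0.26, limma adjusted p = 0.0361), and at 209773_s_at it fell by 2.70 (adjusted p = 0.00219). Replicates 1 and 2 of siRRM2 read 10.54 and 11.44 at 201890_at, and 9.59 and 10.12 at 209773_s_at. The call at 201890_at was lost without either scramble array or either siRRM1 array, with adjusted p up to 0.128. All 9 plasma cell markers, such as SDC1, TNFRSF17, IRF4 and XBP1, were above the filter. Their siRRM1 differences ran from -0.63 (IRF4) to 0.20 (SLAMF7), with a median of -0.22. By limma 0 of the 9 were called in siRRM1, against 12.2% of all tested probe sets. An unadjusted p below 0.05 was reached by 4 of the 9, against 29.9% of all. The log2 of their summed linear signal was 14.76 and 14.69 in siRRM1, 15.02 and 14.91 in siRRM2, and 14.998 and 14.94 in scramble. The part of this in the member results was not tested.

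The comparison of siRRM1 with scramble asked how the salvage and thymidylate genes respond when RNA of the large reductase subunit is lowered. TK1, TYMS and DUT rose, between 1.29-fold and 1.55-fold, and no member fell past the threshold. Of the 14 member probe sets tested, 3 rose and 0 fell, against 12.2% of all tested probe sets (6.42% higher, 5.75% lower). These were 854 higher and 765 lower, or 747 and 1073 with each array centred on its median. Without adjustment, 7 of the 14 had p under 0.05, against 29.9% of all. For 10 of the 14 the arrays of the groups did not overlap, 6 higher and 4 lower in siRRM1, against 57.4% of all (26.0% higher, 31.4% lower). The members' median log2 difference was 0.03, and that of all tested probe sets was -0.02. In RNA from a whole culture, a change in the number of cells in a cycle phase and a change in RNA per cell cannot be told apart.

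TK1, the cytosolic thymidine kinase, had log2 signals of 10.36 and 10.45 in siRRM1, 10.12 and 10.20 in siRRM2, and 9.66 and 9.90 in scramble (202338_at). Both siRRM1 arrays were the highest and both scramble arrays the lowest, with no overlap between any of the 3 groups. TK1 rose 1.55-fold in siRRM1 over scramble (log2 0.63, SE 0.11, limma adjusted p = 0.0159). All 8 other ways of processing kept the call. It was lost in the limma fit without siRRM1 replicate 2, at an adjusted p of 0.0813, or without scramble replicate 1, at 0.0815.

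TYMS, thymidylate synthase, had log2 signals of 12.55 and 12.42 in siRRM1, 12.32 and 12.39 in siRRM2, and 12.08 and 12.07 in scramble (202589_at). The scramble arrays lay within 0.01 of each other, below all 4 knockdown arrays. TYMS rose 1.33-fold in siRRM1 (log2 0.41, SE 0.09, limma adjusted p = 0.0328). Leaving out any 1 of the 6 arrays ended the call, with limma adjusted p between 0.0698 and 0.133. It also ended when only siRRM1 and scramble entered the fit (0.0698). The second probe set, 217684_at, was below the filter, at 5.03 and 4.96 in siRRM1, 4.90 and 5.00 in siRRM2, and 4.90 and 4.69 in scramble. Its siRRM1 arrays also lay above both scramble arrays, and it was not tested.

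DUT, the enzyme that keeps uracil out of DNA by cleaving dUTP, was read by 3 probe sets. The first, 208956_x_at, had log2 signals of 12.54 and 12.63 in siRRM1, 12.38 and 12.41 in siRRM2, and 12.26 and 12.19 in scramble. Each siRRM1 array was above each siRRM2 array, and each of those above both scramble arrays. This probe set rose 1.29-fold in siRRM1 (log2 0.37, SE 0.09, limma adjusted p = 0.0428). The ending _x_at marks probes that may also bind other transcripts. The call ended without any 1 array other than siRRM1 replicate 1, with limma adjusted p up to 0.156. It also ended without a filter (0.0607), with median-centred arrays (0.0592) and with only siRRM1 and scramble in the fit (0.0892).

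The DUT probe set 209932_s_at showed the same order of the groups, at 11.77 and 11.76 in siRRM1, 11.58 and 11.58 in siRRM2, and 11.41 and 11.46 in scramble. Its log2 difference of 0.33 in siRRM1 did not pass the threshold (SE 0.09, limma adjusted p = 0.0504). It was called under 4 of the other ways of processing, with adjusted p between 0.0105 and 0.0371. The third, 208955_at, had 9.50 and 9.75 in siRRM1, 8.99 and 9.37 in siRRM2, and 9.06 and 9.27 in scramble. Its siRRM1 arrays were the highest, while the siRRM2 and scramble arrays overlapped. The log2 difference between siRRM1 and scramble was 0.47, with the widest standard error among the DUT probe sets (0.16, limma adjusted p = 0.0970).

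**Figure D1:**
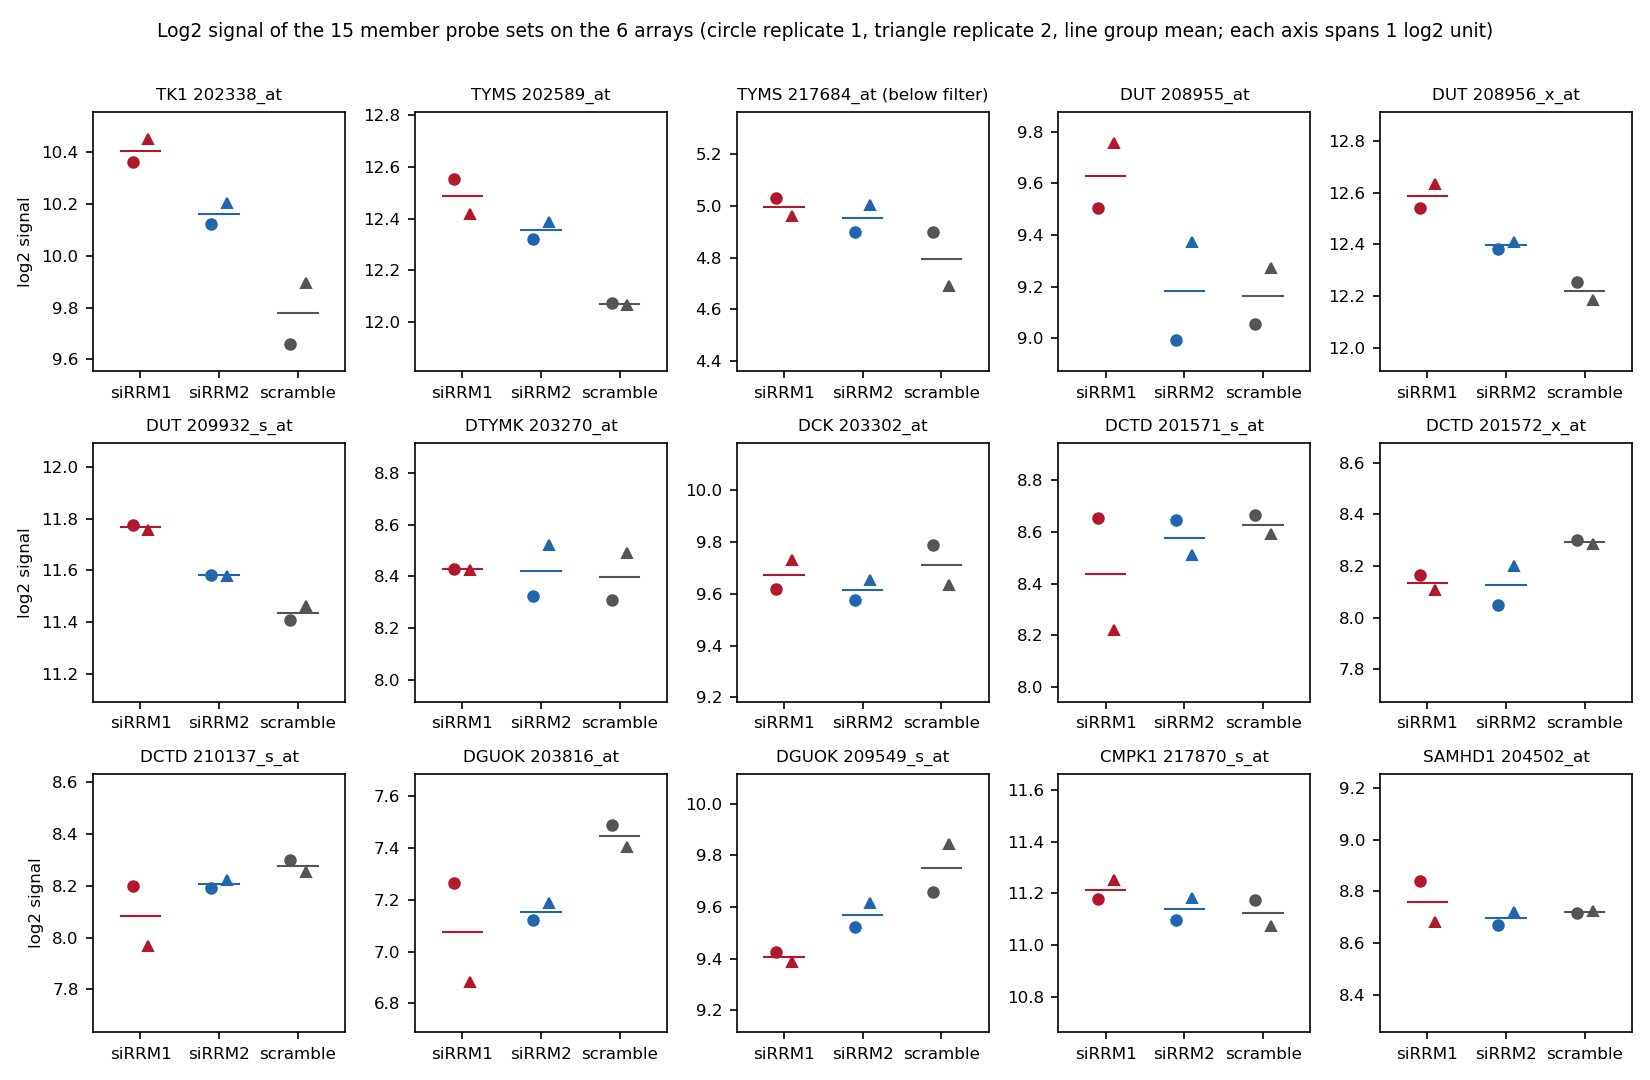
Log2 signal (vertical axes, each spanning 1 log2 unit) of the 15 member probe sets on the 6 arrays, by group. Circles are replicate 1, triangles replicate 2 and lines group means of 2 arrays. The siRRM1 arrays of TK1, TYMS 202589_at and the 3 DUT probe sets lie above both scramble arrays, and those of DGUOK lie below them.

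DGUOK, the mitochondrial deoxyguanosine kinase, was the member with the lowest siRRM1 values relative to scramble. Probe set 209549_s_at had log2 signals of 9.42 and 9.39 in siRRM1, 9.52 and 9.62 in siRRM2, and 9.66 and 9.84 in scramble. The 3 groups did not overlap, with siRRM1 lowest. Its log2 difference of -0.34 in siRRM1 did not pass the threshold (SE 0.10, limma adjusted p = 0.0688). It was called under 4 of the other ways of processing, with adjusted p between 0.0419 and 0.0492. Probe set 203816_at had 7.27 and 6.88 in siRRM1, 7.12 and 7.19 in siRRM2, and 7.49 and 7.40 in scramble. Here both knockdowns lay below scramble, and the lowest array was siRRM1 replicate 2. The log2 difference was -0.37 (SE 0.13, limma adjusted p = 0.115), and -0.18 without siRRM1 replicate 2.

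DCTD, the deoxycytidylate deaminase, was read by 3 probe sets with siRRM1 differences of -0.19 (201571_s_at), -0.16 (201572_x_at) and -0.19 (210137_s_at) on the log2 scale. None passed the threshold, with limma adjusted p between 0.272 and 0.432. In siRRM1 replicate 2 the first read 8.22, against 8.65 in siRRM1 replicate 1, 8.65 and 8.51 in siRRM2, and 8.66 and 8.59 in scramble. Without that array the difference of 201571_s_at was 0.03. At 201572_x_at and 210137_s_at, all siRRM1 and siRRM2 arrays lay below both scramble arrays. With each array left out, their siRRM1 differences ran from -0.19 to -0.13 (201572_x_at) and from -0.31 to -0.07 (210137_s_at).

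DTYMK, DCK, CMPK1 and SAMHD1 had siRRM1 differences between -0.04 and 0.09 on the log2 scale. DTYMK, thymidylate kinase, read 8.43 and 8.43 in siRRM1, 8.32 and 8.52 in siRRM2, and 8.31 and 8.49 in scramble. Its groups overlapped, and the 95% interval of the siRRM1 difference ran from -0.23 to 0.29. DCK, which also activates nucleoside drugs such as cytarabine, read 9.62 and 9.73 in siRRM1, 9.58 and 9.65 in siRRM2, and 9.79 and 9.63 in scramble. Its groups overlapped too, with an interval from -0.28 to 0.20. CMPK1, the pyrimidine monophosphate kinase, read 11.18 and 11.25 in siRRM1, 11.10 and 11.18 in siRRM2, and 11.17 and 11.07 in scramble. Both siRRM1 arrays lay above both scramble arrays, with an interval from -0.13 to 0.31.

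SAMHD1, the triphosphohydrolase that lowers the deoxynucleotide pool and is abundant in myeloid cells, read 8.84 and 8.68 in siRRM1, 8.67 and 8.72 in siRRM2, and 8.72 and 8.72 in scramble. The arrays overlapped, and the siRRM1 difference was 0.04 (SE 0.10, limma adjusted p = 0.820). Beside it, 3 of 9 myeloid markers were above the filter, S100A8, S100A9 and CSF1R. All 3 were called higher in siRRM1, against 6.42% of all tested probe sets. S100A8 lay below the filter's level in scramble, at 4.45 and 4.44, and passed on the mean only through the knockdown arrays, so its rise is no support. The other 6, among them CD14, LYZ and ITGAM, were below it. The log2 of the summed linear signal of the 9 was 9.45 and 10.6 in siRRM1, 8.55 and 9.53 in siRRM2, and 7.90 and 7.98 in scramble. The brightest probe sets dominate that sum, in the siRRM1 arrays S100A8 among them, and the sum was not recomputed without S100A8. S100A9 and CSF1R were above the filter's level in both scramble arrays. S100A9 read 5.90 and 5.98 in scramble and 7.94 and 9.03 in siRRM1. CSF1R read 5.56 and 5.84 in scramble and 6.73 and 7.68 in siRRM1. Group means of S100A9 and CSF1R were highest in siRRM1, as were those of TK1, TYMS and DUT. The part of these markers in the member results was not tested. Of 10 T cell markers 5 were above the filter, and the log2 of the summed linear signal of the 10 was 12.22 and 12.24 in siRRM1, 12.05 and 12.03 in siRRM2, and 11.63 and 11.55 in scramble. That sum rests on TRBC1, which rose in siRRM1 (log2 1.09, limma adjusted p = 0.00335), and on CD28 (0.35, adjusted p = 0.0957), while CD3E, CD5 and CD6 had differences of 0.13, 0.11 and 0.08. CD3D, CD3G, CD2, CD8A and LCK were below the filter. Of 5 B cell markers 1, CD22, was above it.

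For the small subunit, siRRM2 was set against the same scramble arrays. No member passed the threshold: of the 14 tested, 0 rose and 0 fell by limma, against 1.32% of all tested probe sets (1.12% higher, 0.203% lower). Without adjustment, TK1 and TYMS had p under 0.05, 2 of 14 against 18.8% of all. For 8 of the 14 the arrays did not overlap, 4 higher and 4 lower in siRRM2, against 54.8% of all (25.8% higher, 29.0% lower). The members' median log2 difference was -0.01, as was that of all probe sets.

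TK1 had a log2 difference of 0.39 in siRRM2 over scramble (SE 0.11, limma adjusted p = 0.136), with a 95% interval from 0.13 to 0.64. TYMS had 0.28 (SE 0.09, limma adjusted p = 0.178), with an interval from 0.06 to 0.50. Both had each siRRM2 array above both scramble arrays, as given above. The DUT probe sets had 0.18 (208956_x_at), 0.14 (209932_s_at) and 0.02 (208955_at), and the DGUOK probe sets had -0.18 (209549_s_at) and -0.29 (203816_at). The remaining 7 tested probe sets, of DTYMK, DCK, DCTD, CMPK1 and SAMHD1, lay between -0.17 and 0.02, with limma adjusted p of at least 0.392.

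**Figure D2:**
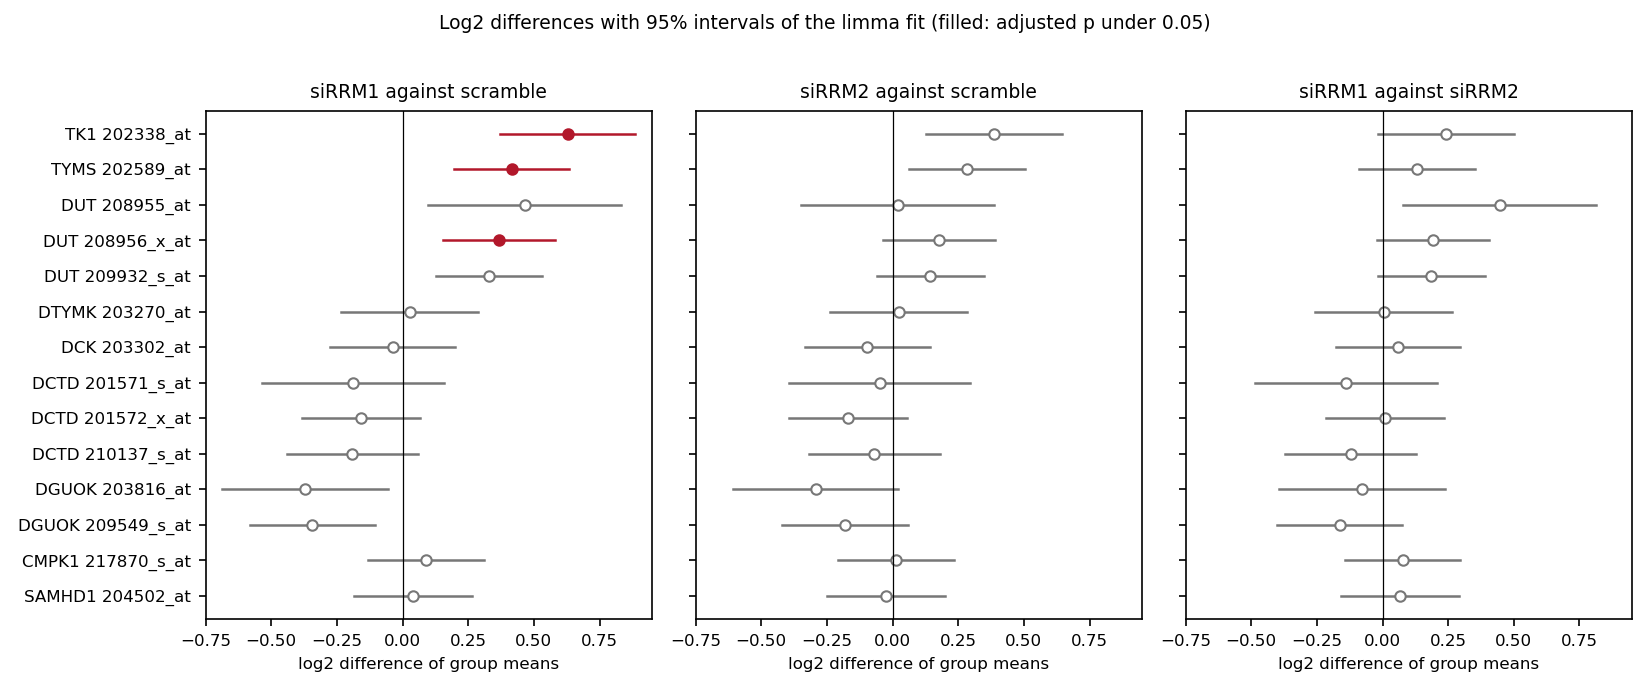
Log2 difference (horizontal axes) of the 14 tested member probe sets in the 3 comparisons, with 95% intervals of the limma fit. Filled points passed an adjusted p of 0.05: TK1, TYMS and DUT 208956_x_at in siRRM1 against scramble, and none in the other comparisons.

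Set directly against each other, the knockdowns did not differ past the threshold for any member. By limma 0 of 14 were called in siRRM1 against siRRM2, where 0.0376% of all tested probe sets were (0.0225% higher, 0.0150% lower). Without adjustment, 1 of the 14, DUT 208955_at, had p under 0.05, against 8.63% of all. Its log2 difference was 0.45 (SE 0.16, limma adjusted p = 0.496), with siRRM1 arrays at 9.50 and 9.75 and siRRM2 arrays at 8.99 and 9.37. For TK1 the difference was 0.24 (95% interval -0.02 to 0.50, limma adjusted p = 0.607) and for TYMS 0.13 (-0.09 to 0.35, adjusted p = 0.762). A call in siRRM1 and none in siRRM2 therefore does not show that TK1, TYMS or DUT responded differently. For 6 of 14 the arrays did not overlap, against 38.5% of all. TK1, TYMS and the 3 DUT probe sets lay higher in siRRM1 (5, against 17.3% of all), and DGUOK 209549_s_at lower (1, against 21.2%).

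The neighbours of these enzymes in nucleotide metabolism were taken from 4 lists. Each gene was read at its tested probe set of highest mean. Among 10 other genes of nucleoside salvage and transport, 2 rose and 2 fell in siRRM1, where 6.42% of all tested probe sets were called higher and 5.75% lower. TYMP, which breaks thymidine down to thymine, read 8.75 and 8.78 in siRRM1, 8.70 and 8.68 in siRRM2, and 8.08 and 8.07 in scramble. All 4 knockdown arrays lay above both scramble arrays, and TYMP rose in siRRM1 (log2 0.69, SE 0.09, limma adjusted p = 0.00564) and in siRRM2 (0.62, SE 0.09, adjusted p = 0.0345). The siRRM2 call was lost with either scramble or either siRRM2 array left out (adjusted p between 0.107 and 0.192).

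ADA, adenosine deaminase, which also clears deoxyadenosine, rose in siRRM1 (log2 0.68, SE 0.11, limma adjusted p = 0.0120). It read 11.99 and 11.87 in siRRM1, 11.77 and 11.63 in siRRM2, and 11.34 and 11.16 in scramble. The siRRM2 difference of 0.45 did not pass the threshold (SE 0.11, limma adjusted p = 0.0974). It was called there with a variance trend (0.0342) and with a replicate block (0.0310). APRT, the adenine salvage enzyme, fell by 0.59 (adjusted p = 0.0143) and UCKL1, a uridine kinase homologue, fell by 0.49 (adjusted p = 0.0173). Without siRRM1 replicate 2, scramble replicate 1 or scramble replicate 2, 0 of the salvage genes fell, and without scramble replicate 2 the rises numbered 1. The median log2 difference of the 10 genes was 0.03 in siRRM1. An unadjusted p below 0.05 was reached by 6 of the 10 in siRRM1 and 2 in siRRM2, against 29.9% and 18.8% of all.

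By limma 0 of 9 tested genes of the folate cycle, which regenerates the cofactor of TYMS, were called in siRRM1 or siRRM2, against 12.2% and 1.32% of all tested probe sets. At an unadjusted p below 0.05 there were 1 and 0, against 29.9% and 18.8% of all. The smallest p belonged to MTHFD1 in siRRM1 (log2 0.26, adjusted p = 0.131) and GART in siRRM2 (-0.19, adjusted p = 0.351). Likewise 0 of 8 other nucleotide kinases and 0 of 8 nucleotidases and pool-sanitizing phosphatases were called in either. At an unadjusted p below 0.05, the kinases numbered 2 of 8 in siRRM1 and 1 of 8 in siRRM2, and the phosphatases 3 of 8 and 1 of 8, against the same 29.9% and 18.8%. NME4, a mitochondrial nucleoside diphosphate kinase, came nearest among the kinases (0.33 in siRRM1, adjusted p = 0.0669, and 0.27 in siRRM2, adjusted p = 0.205). Under 2 of the other ways of processing it was called in siRRM1, at 0.0434 and 0.0465. Among the phosphatases it was NT5E, the cell surface 5′-nucleotidase, in siRRM1 (-0.39, adjusted p = 0.0505) and DNPH1 in siRRM2 (0.22, adjusted p = 0.265). NT5E was called in siRRM1 under 4 of the other ways, with adjusted p between 0.0344 and 0.0390, and without siRRM1 replicate 1 (0.0425). Median differences of these 3 lists lay between -0.06 and -0.04 in siRRM1, and between -0.11 and -0.04 in siRRM2.

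TK1, TYMS and DUT are S phase genes, so 21 other genes of that phase were set beside them. In siRRM1, 4 of the 21 rose (CCNE2, PCNA, MCM3 and MCM5) and 0 fell, against 6.42% higher and 5.75% lower among all tested probe sets. At an unadjusted p below 0.05 there were 12 of the 21, against 29.9% of all. The median log2 difference of the 21 was 0.29. CCNE2, the cyclin of S phase entry, rose by 1.09 (SE 0.12, limma adjusted p = 0.00371) and PCNA, the sliding clamp, by 0.72 (SE 0.09, adjusted p = 0.00603). The lowest of the 21 was POLA1, the polymerase alpha catalytic subunit, at -0.04. In siRRM2, 0 of 21 were called by limma and 3 had an unadjusted p below 0.05, against 1.32% and 18.8% of all. The median was 0.10, with CCNE2 highest at 0.52 (adjusted p = 0.0886). CCNE2 was called there with a replicate block (0.0299), and PCNA with a variance trend (0.0408). CCNE2 and PCNA kept their calls with each of the 6 arrays left out in turn. Set directly against siRRM2, siRRM1 had 0 of 21 called by limma and 8 at an unadjusted p below 0.05, against 0.0376% and 8.63% of all. The 4 rises over scramble became 2 without siRRM1 replicate 2, scramble replicate 1 or scramble replicate 2.

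**Figure D3:**
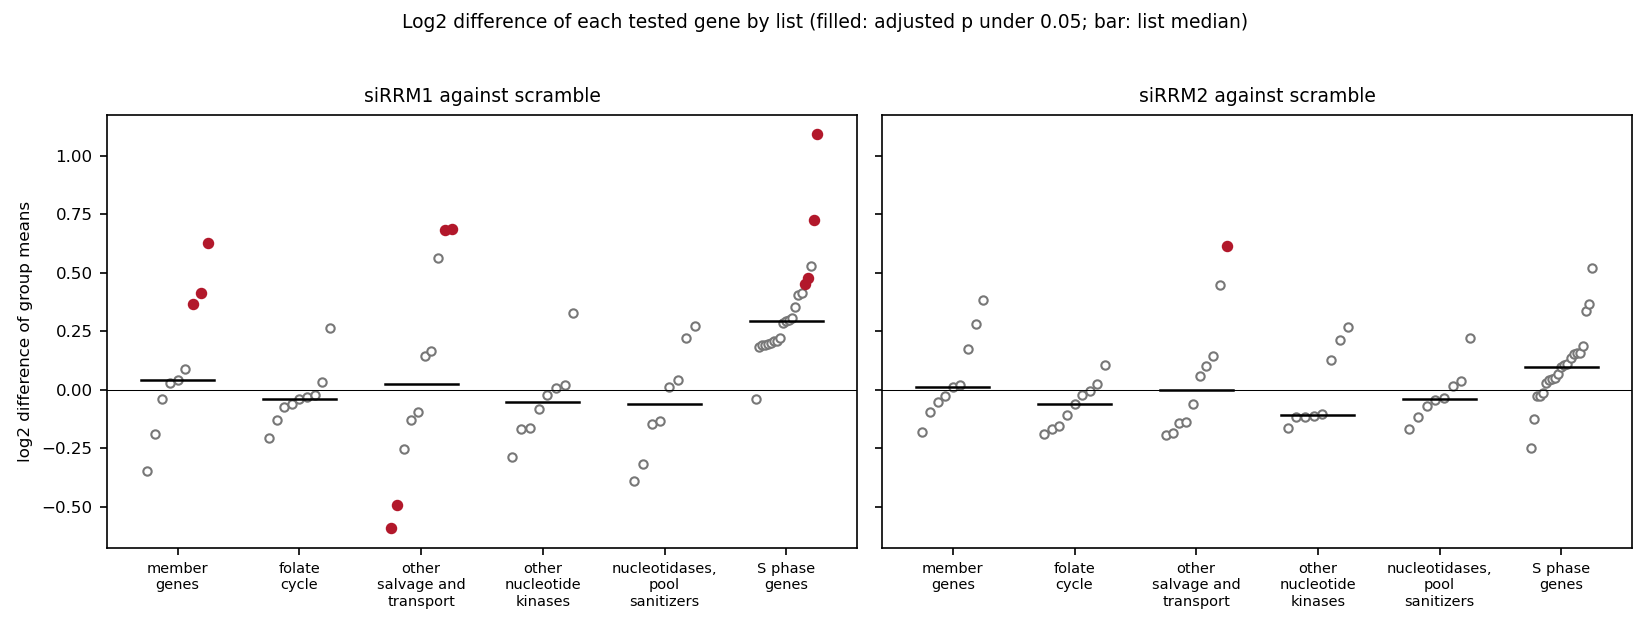
Log2 difference from scramble (vertical axis) of each tested gene in 6 gene groups, for siRRM1 (left) and siRRM2 (right). Filled points passed an adjusted p of 0.05 and bars are group medians. S phase genes have a median of 0.29 in siRRM1 and 0.10 in siRRM2, while the medians of the other groups lie between -0.11 and 0.04.

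For each called member, the probe sets of other genes closest to it in shape over the 6 arrays were found by the root mean square difference between profiles centred on their own means. For TK1, whose own root mean square deviation was 0.27, these were PLIN2, MR1 and CADM1, at 0.033, 0.034 and 0.041 log2 units. For TYMS (0.18) they were FYN, LAMC1 and NDUFB2, at 0.031, 0.032 and 0.035. For DUT 208956_x_at (0.15) they were THBS3, SLC12A4 and GALNT1, at 0.021, 0.026 and 0.026. None of these 9 genes belongs to the S phase or nucleotide lists. Of 7936 tested genes, the S phase list holds 21 and each nucleotide list at most 10. Their absence among so few neighbours therefore says nothing about the members.

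**Figure D4:**
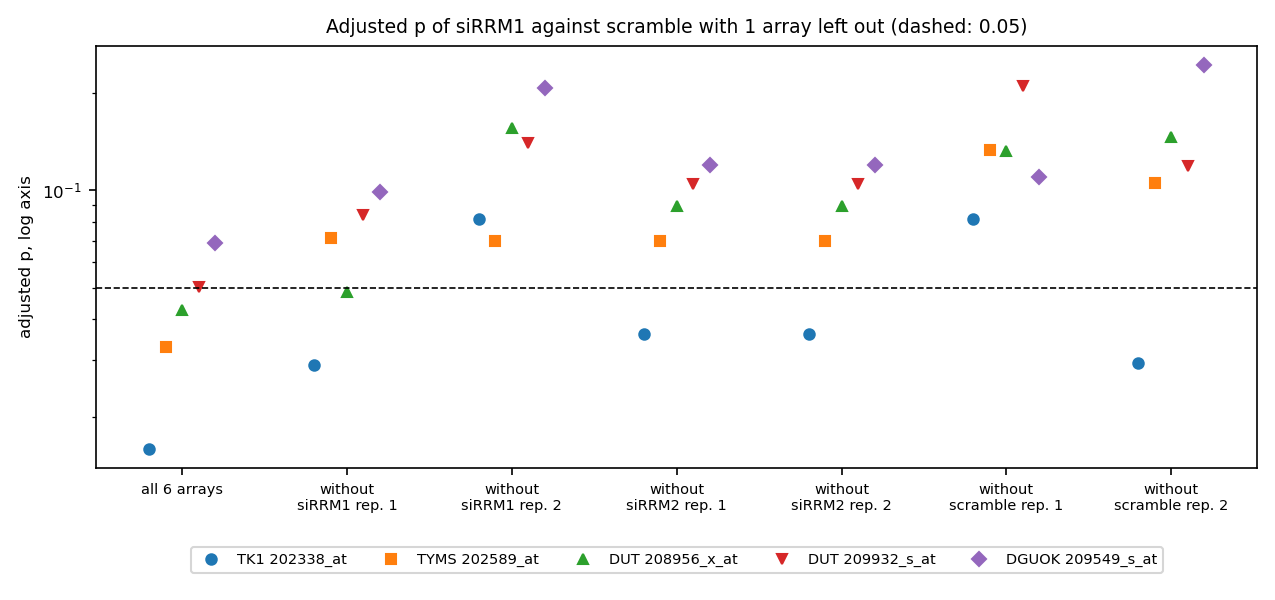
Adjusted p (vertical log axis) of siRRM1 against scramble for 5 member probe sets, with all 6 arrays and with each array left out. The dashed line is 0.05. With all arrays TK1, TYMS and DUT 208956_x_at lie under it. TK1 stays under it in 4 of the 6 cases, DUT 208956_x_at in 1 and TYMS in 0.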

How the data were processed

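Expression was measured on Affymetrix oligonucleotide arrays from biotin-labelled cRNA, per the labels' protocols. The authors deposited log2 signals per probe set. The method of summarising and scaling them was not given in the sources used here, and the log base was inferred: the highest value would mean a signal of 21928 as log2 and 1831214 as a natural logarithm. Gene names came from the platform annotation (19070 probe sets with 1 gene symbol, 1043 with several, 2164 with none). All 9 member genes matched RefSeq by gene ID, with 0 symbols changed. The 62 control probe sets were left out.

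Probe sets at or above the 40th percentile of the mean were fitted with limma 3.58.1 in R 4.3.3 (lmFit, eBayes) over all 6 arrays, with 3 degrees of freedom from the arrays and a prior worth 4.29. The two-sided p-values were adjusted over all 13308. The fit was tested on simulated data with independent noise on each array. That test does not cover deviations shared by same-numbered arrays. Standard errors and 95% intervals are those of the moderated fit, with no adjustment for the number of probe sets. The number of arrays, 2 a group, limits the precision. Members and lists were chosen with earlier results of these data known, and list counts are descriptions with no set test. Of each list, at most 2 called genes per direction are named by adjusted p, or, where none was called, the gene of lowest p. MCM3, MCM5, POLA1 and the marker genes are no part of that rule. Alternatives were other filters, scalings, spread estimates and groups in the fit, 1 probe set per gene, a replicate block and leaving out each array.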

Additional observations from a re-analysis of the deposited data

How the results depend on the processing

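The direction of the siRRM1 difference of TK1, TYMS, the 3 DUT probe sets and both DGUOK probe sets held under every alternative run. Under the 60th percentile filter, median-centred arrays and a variance trend, 1 member was called lower in siRRM1 (DGUOK 209549_s_at), and only 1 higher when 2 groups entered the fit. Probe sets called in siRRM1 numbered 923 (343 lower) with only 2 groups. In siRRM2 they numbered 347 with the trend (271 higher, 76 lower), and the lower ones 41 with 1 probe set per gene. Between the knockdowns they were 3 (1 higher) with the 60th percentile filter, 16 (11 higher, 5 lower) with the trend, 13 (10 higher) with 1 probe set per gene, and 1 lower with 2 groups. The cause was not tested.

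Replicate numbers are shared between groups, and deviations of same-numbered arrays correlated at 0.352 (siRRM1 and scramble), 0.362 (siRRM2 and scramble) and 0.210 (siRRM1 and siRRM2). With only 2 numbers a group this does not show pairing. With the replicate number as a block, calls were 2746 in siRRM1 (1301 higher, 1445 lower), 712 in siRRM2 (499 and 213) and 101 between knockdowns (77 and 24). Member calls in siRRM1 were then 5 higher, with all 3 DUT probe sets, and 1 lower.

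Differences near 0 changed sign. Median centring shifted the siRRM1 difference by -0.043 and that of siRRM2 by -0.037. DTYMK then stood at -0.015 in siRRM1, -0.014 in siRRM2 and -0.0010 between them, SAMHD1 at -0.0028 in siRRM1, and DUT 208955_at at -0.018 and CMPK1 at -0.024 in siRRM2. Quantile normalization put DCK at 0.017 in siRRM1. With each array left out, siRRM1 differences ran from -0.064 to 0.12 (DTYMK), -0.12 to 0.039 (DCK), -0.41 to 0.027 (DCTD 201571_s_at) and -0.038 to 0.12 (SAMHD1). Those of siRRM2 ran from -0.17 to 0.21 (DUT 208955_at), -0.077 to 0.12 (DTYMK), -0.036 to 0.064 (CMPK1), -0.12 to 0.018 (DCTD 201571_s_at) and -0.050 to 0.00019 (SAMHD1). Between knockdowns they ran from -0.095 to 0.10 (DTYMK), -0.36 to 0.077 (DCTD 201571_s_at), -0.066 to 0.087 (DCTD 201572_x_at), -0.27 to 0.11 (DGUOK 203816_at) and -0.013 to 0.14 (SAMHD1).

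Calls with 1 array left out ranged from 386 (without siRRM1 replicate 2) to 2003 (without siRRM1 replicate 1) in siRRM1, with 298 to 816 higher and 88 to 1187 lower. They ranged from 6 to 135 in siRRM2, with 4 to 114 higher and 1 to 21 lower, and from 2 to 5 between knockdowns, with 0 to 3 lower. Members called in siRRM1 ranged from 0 to 2 higher and from 0 to 1 lower, that call being DGUOK 203816_at without siRRM1 replicate 1. List counts with 1 array left out were added after seeing the data. In siRRM1 they ran from 1 to 3 higher and 0 to 2 lower for salvage and from 2 to 5 higher for S phase genes, and in siRRM2 from 0 to 1 higher for salvage. No depth is defined for arrays, and TYMS 217684_at was too dim to test.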
